A study of Mus musculus with 56 samples.

Results

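Messenger RNAs of the nuclear-encoded subunits of oxidative phosphorylation were followed in gastrocnemius, a calf muscle, of mice fed only by day or only by night. Members were the genes of the deposited table whose Entrez ID carries a symbol of the Nduf (a, b, c, s and v), Sdh, Uqcr, Cox4 to Cox8 or Atp5 series, without pseudogenes. They came to 85 of the 19072 genes listed: 37 for complex I, 4 for complex II, 8 for complex III, 19 for complex IV and 17 for complex V. Ndufa4 and Ndufa4l2 were counted with complex IV, where the NDUFA4 protein is found. One group of mice received food for 7 days in the light phase only (daytime-restricted feeding, DRF), and the other for 7 days in the dark phase only (nighttime-restricted feeding, NRF). All were female C57BL/6J mice with no genetic change named, 9 weeks old, which had spent 7 days on free food under a light to dark cycle of 12 h each before the restriction began. Muscle was collected every 4 h from lights on (zeitgeber time 0, ZT0) to ZT24. Each of the 14 groups of regimen and time had 4 libraries, which makes 28 per regimen. The labels do not say that each library is a separate mouse, so p-values measure the spread between these libraries.

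The respiratory chain sits in the inner mitochondrial membrane. Complexes I and II pass electrons from NADH and succinate to ubiquinone, complex III passes them on to cytochrome c and complex IV to oxygen, and complexes I, III and IV pump protons. Complex V, ATP synthase, lets the protons back and makes ATP. A few subunits are encoded in mitochondrial DNA and were not analysed here. The others are made from nuclear genes and imported, and slow and oxidative muscle fibres hold more of them than fast glycolytic ones.

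The values are CPM, the reads of a gene per 1000000 reads of the library size the authors used, recovered from the deposited scores. The libraries held 28173234 to 36183625 recovered reads, and replicates of a group correlated at 0.953 to 0.994 on the log2 scale. Of the 85 members, 84 had recoverable reads and 82 passed a mean of at least 1 CPM, while Ndufb4b and Cox6b2 fell below it and Cox7b2 had too few values above 0. No tested member had fewer than 35 reads in any library. Together the members took 1.75% to 3.35% of a library's reads. Skeletal muscle markers such as Acta1 and Ckm were abundant in every library, summing to 148200 to 338500 CPM in DRF and 139000 to 288500 CPM in NRF. Libraries differed in the members' level. In replicate 1 of DRF at ZT20 the 82 members lay 0.49 above their means on the log2(CPM + 1) scale, the highest of all 56 libraries. Counts that rest on this library are also given without it. The lowest was replicate 3 of NRF at ZT12, at -0.43. Whole muscle was sequenced, so fewer cells of a type and less RNA per cell cannot be told apart.

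Levels per transcript length (TPM, recomputed from the recovered reads) spanned several orders of magnitude. Atp5b, the catalytic beta subunit of ATP synthase, was the most abundant, at 3286 ± 584 TPM in DRF and 3351 ± 566 TPM in NRF (SD, n = 28 each). Cox6a2, the heart and muscle isoform of a regulatory complex IV subunit, came next at 2953 ± 503 TPM in DRF and 2805 ± 435 TPM in NRF. These means differed by less than their SDs, both between regimens and between the 2 genes in DRF. The alpha subunit gene Atp5a1 followed at 1842 ± 322 TPM in DRF and 1886 ± 353 TPM in NRF. At the other end stood Cox4i2, the isoform of lung and hypoxic cells, at 5.24 ± 1.53 TPM in DRF and 5.92 ± 1.66 TPM in NRF. Below it lay Cox6b2, the testis isoform, at 0.849 ± 0.416 TPM in DRF and 0.831 ± 0.358 TPM in NRF.

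**Figure D1:**
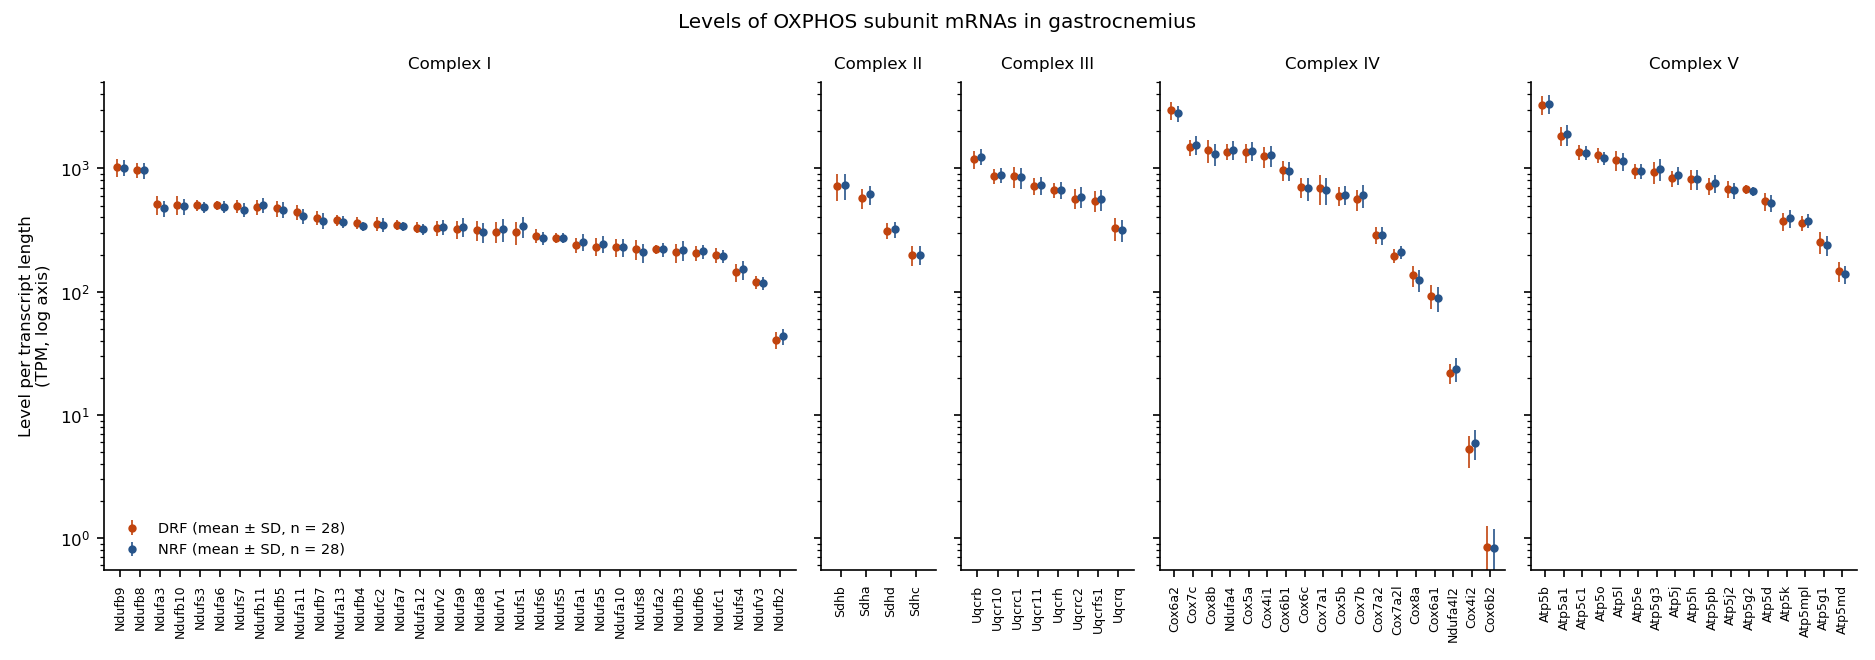
Level of the members per transcript length (TPM on a log axis, mean ± SD over 28 libraries per regimen), DRF left of NRF, grouped by complex and ordered by the DRF mean. Complex IV has the widest range, with Cox6a2 at 2953 TPM and Cox6b2 at 0.849 TPM in DRF, and every member's DRF and NRF values lie close together.

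Complex IV holds pairs of isoforms that replace each other in different tissues, and the muscle isoforms made up most of the reads in both regimens. Cox6a2 made up 97.5% of the reads of its pair with Cox6a1 in DRF and 97.4% in NRF. Cox8b made up 87.2% of the reads of its pair with Cox8a in DRF and 87.3% in NRF. The pair Cox7a1 and Cox7a2 was more even, with Cox7a1 at 59.1% of the reads in DRF and 58.2% in NRF. The log2 ratio of Cox7a1 over Cox7a2 ran from 0.12 to 0.87 among DRF libraries and from 0.10 to 0.72 among NRF libraries, and its means of 0.50 ± 0.21 in DRF and 0.46 ± 0.18 in NRF (SD, n = 28 each) differed by less than that spread. Ndufa4l2, the hypoxia-inducible partner of Ndufa4, held 2.38% of the reads of that pair in DRF and 2.50% in NRF. A ratio within a library does not move with the library's scaling.

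Averaged over the day, a share of the members were slightly higher in DRF, among them subunits of complexes I, III, IV and V. With limma and Benjamini-Hochberg adjustment over 12025 genes, 32 of 82 members were higher in DRF and 0 were lower, while 46 members had an unadjusted p under 0.05. Among all genes tested, 8.35% were higher in DRF and 7.53% were lower. The higher members were 20 of 36 in complex I, 0 of 4 in complex II, 1 of 8 in complex III, 4 of 17 in complex IV and 7 of 17 in complex V. The differences were small: the members' median was 0.12 on the log2(CPM + 1) scale and their range was -0.05 to 0.25, against a median of -0.001 for all genes. Without replicate 1 of DRF at ZT20, 20 members were called. The direction depended on how libraries were scaled: 80 of 82 estimates were positive with the authors' library size, 58 of 82 with the recovered totals (4 called higher), and 40 of 81 as TPM (0 called higher and 2, Ndufs1 and Cox7a2l, called lower). The TPM scaling moved the median of all genes by -0.10. Relative to the median of all genes, the members' median was 0.12 with the authors' library size, 0.12 with the totals and 0.10 as TPM. It was 0.088 with quantile scaling and 0.034 after each library's gene-length trend was removed, so this excess also depended on the processing.

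**Figure D2:**
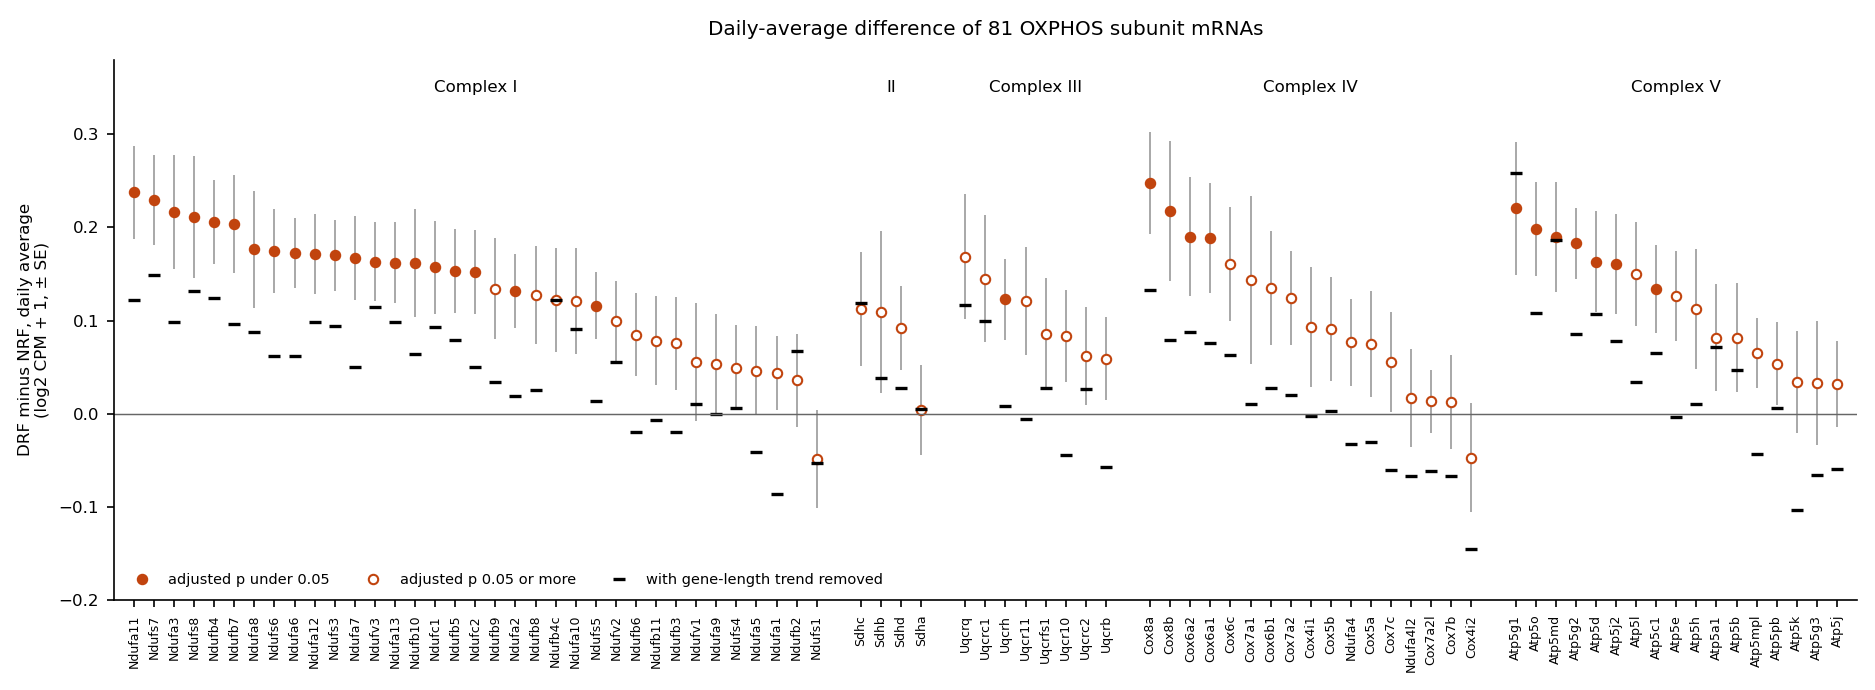
Difference between DRF and NRF averaged over the day for 81 of the 82 members tested (log2(CPM + 1) with the authors' library size, ± SE from limma), grouped by complex. Of all 82 estimates 80 are positive, against 40 of 81 as TPM. Filled points are the 32 members with an adjusted p under 0.05, open points the others, and black dashes the same difference after each library's gene-length trend was removed, which lie below the points for most members.

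Within complex I, subunits were counted by the part they sit in. The core subunits are those kept from bacteria to mammals. Of the 3 in the arm that oxidises NADH, Ndufs1, Ndufv1 and Ndufv2, 0 were called by limma, with 1 of them, Ndufv2, at an unadjusted p under 0.05. Their differences were -0.05 ± 0.05 for Ndufs1, 0.06 ± 0.06 for Ndufv1 and 0.10 ± 0.04 for Ndufv2 (SE, log2). In the part that leads electrons on to ubiquinone, Ndufs3 was higher in DRF by 0.17, Ndufs7 by 0.23 and Ndufs8 by 0.21. Not every core subunit of that part is named here, so these values do not describe the part as a whole. Among the 29 accessory subunits, which surround and stabilise the core, 17 were higher, led by Ndufa11 at 0.24 ± 0.05. Ndufb4, an accessory subunit of the membrane arm whose reads came out as decimals, as shared reads do, and are uncertain, was higher by 0.21 ± 0.05 (adjusted p = 0.00337).

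None of the 4 complex II subunits was called by limma, and 1 of them, Sdhd, had an unadjusted p under 0.05. Sdha, the flavoprotein that oxidises succinate, had a median of 805 CPM in DRF (lowest 650, highest 989) and of 804 CPM in NRF (lowest 591, highest 953). Its difference was 0.004 ± 0.05, and the libraries of the regimens overlapped almost wholly. The iron-sulfur subunit Sdhb and the membrane anchors Sdhc and Sdhd differed by 0.11 ± 0.09, 0.11 ± 0.06 and 0.09 ± 0.04. The largest difference in complex III was that of Uqcrq, a small ubiquinone-binding subunit, at 0.17 ± 0.07, which was not called (adjusted p = 0.075). In complex III only Uqcrh, the hinge protein that helps cytochrome c1 meet cytochrome c, was called, at 0.12 ± 0.04 (adjusted p = 0.0468). The core protein gene Uqcrc1 differed by 0.14 ± 0.07 and the Rieske iron-sulfur protein gene Uqcrfs1 by 0.09 ± 0.06, and neither was called.

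In complex IV, 2 of 3 muscle isoforms and 2 of their 3 broadly expressed counterparts were called. The pair Cox7a1 and Cox7a2 was not, at 0.14 ± 0.09 (adjusted p = 0.273) and 0.12 ± 0.05 (adjusted p = 0.0827). Cox8a, the broad isoform, had the largest difference of all members at 0.25 ± 0.05 (adjusted p = 0.00347), and Cox8b, the muscle isoform, was higher by 0.22 ± 0.08 (adjusted p = 0.0425). Cox6a2 was higher by 0.19 ± 0.06 and Cox6a1 by 0.19 ± 0.06. When each of the 56 libraries was left out in turn, the call of Cox8b was lost in 26 fits, that of Cox6a2 in 12 and that of Cox6a1 in 2, with adjusted p-values up to 0.0839, 0.0726 and 0.0526. Cox4i1, which binds ATP and starts assembly of the complex, differed by 0.09 ± 0.06 and was not called.

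In complex V, 2 of the 3 genes for the proton-carrying c-ring were higher in DRF. They encode the same mature protein with different import sequences. Atp5g1 was higher by 0.22 ± 0.07 and Atp5g2 by 0.18 ± 0.04, while Atp5g3 differed by 0.03 ± 0.07. The reads of Atp5g1 came out as decimals too and are uncertain, and its call was lost in 3 of the 56 fits with a library left out. The catalytic subunits Atp5a1 and Atp5b differed by 0.08 ± 0.06 each and were not called. Atp5o, which ties the peripheral stalk to the catalytic head, was higher by 0.20 ± 0.05 (adjusted p = 0.00839).

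Atp5g2 had the smallest p of all members, with a median of 241 CPM in DRF (lowest 190, highest 335) and of 216 CPM in NRF (lowest 172, highest 277), and an adjusted p of 0.00229. Ndufa11, which holds the membrane arm of complex I together, had a median of 116 CPM in DRF (lowest 88.6, highest 173) and of 98.9 CPM in NRF (lowest 70.8, highest 130), with an adjusted p of 0.00258. Ndufs7 had a median of 236 CPM in DRF (lowest 180, highest 335) and of 205 CPM in NRF (lowest 142, highest 260), with an adjusted p of 0.00264. Cox8a had a median of 35.3 CPM in DRF (lowest 26.9, highest 49.9) and of 30.3 CPM in NRF (lowest 23.8, highest 39.8). In all 4 the regimens' libraries overlapped, and the differences were folds of 1.14 for Atp5g2, 1.18 for Ndufa11, 1.17 for Ndufs7 and 1.19 for Cox8a.

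The promoters of these 4 genes are shown because the 4 were among the members with the smallest p in the daily average. They are RefSeq windows of GRCm38.p6, from 250 bases before to 50 after an annotated start, read 5′ to 3′ on the gene's strand. The Ndufs7 window begins at base 80249199, inside the gene as listed, which starts at 80249105. Bases before that listed start are not in the window. Capitals mark matches to the letters of a binding sequence of NRF-1 (GCGCANGCG, where N is any base), a transcription factor known for respiratory chain genes, or of ETS factors such as GABP (CCGGAAG), on either strand. Here NRF-1 is the factor nuclear respiratory factor 1, not the feeding regimen NRF.
Atp5g2 (chr15:102670998-102671297, minus strand): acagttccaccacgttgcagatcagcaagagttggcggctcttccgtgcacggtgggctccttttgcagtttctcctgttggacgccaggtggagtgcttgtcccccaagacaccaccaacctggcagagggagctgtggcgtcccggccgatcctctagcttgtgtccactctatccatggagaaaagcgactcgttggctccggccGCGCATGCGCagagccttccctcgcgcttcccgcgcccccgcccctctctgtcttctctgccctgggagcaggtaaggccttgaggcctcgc
Ndufa11 (chr17:56717512-56717811, plus strand): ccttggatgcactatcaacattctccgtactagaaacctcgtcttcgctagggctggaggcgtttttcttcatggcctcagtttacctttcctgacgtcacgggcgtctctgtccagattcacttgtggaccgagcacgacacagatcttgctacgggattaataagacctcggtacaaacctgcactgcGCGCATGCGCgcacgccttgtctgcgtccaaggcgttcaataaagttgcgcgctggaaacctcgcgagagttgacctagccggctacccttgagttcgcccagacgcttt
Ndufs7 (chr10:80249199-80249498, plus strand): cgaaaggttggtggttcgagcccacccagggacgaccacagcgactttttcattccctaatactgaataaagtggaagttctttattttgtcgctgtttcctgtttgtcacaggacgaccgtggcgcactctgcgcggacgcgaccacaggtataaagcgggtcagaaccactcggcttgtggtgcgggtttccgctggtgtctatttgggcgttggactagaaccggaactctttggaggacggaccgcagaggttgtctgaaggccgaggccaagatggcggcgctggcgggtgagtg
Cox8a (chr19:7217567-7217866, minus strand): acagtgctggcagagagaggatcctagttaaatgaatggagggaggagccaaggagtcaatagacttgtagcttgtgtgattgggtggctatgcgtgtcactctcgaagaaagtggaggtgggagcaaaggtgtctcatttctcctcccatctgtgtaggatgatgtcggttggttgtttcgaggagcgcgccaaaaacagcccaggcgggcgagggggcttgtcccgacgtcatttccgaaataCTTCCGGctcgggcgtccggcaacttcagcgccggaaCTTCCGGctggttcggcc

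Atp5g2 and Ndufa11 each hold the NRF-1 letters on both strands of the same palindrome, Cox8a holds the ETS letters at 2 places, and these letters are not in the Ndufs7 window. A promoter was in the RefSeq table for 69 of the 85 members. The NRF-1 letters were in 20 of these 69 (29%), against 7.03% of the 27025 genes with a promoter. They were in 7 of 15 members of complex V and in 1 of 14 of complex IV. The ETS letters were in 17 of the 69 members (24.6%), against 9.93% of all genes. Among the members called higher in DRF, 11 of 30 held the NRF-1 letters, and among those tested and not called 9 of 36 did, while the ETS letters were in 7 of 30 and 10 of 36. A match is a description of the letters and not of binding.

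Most members are short, and among other genes the share called higher in DRF was larger the shorter the transcript. The members' transcripts had a median length of 823 bases, against 2862 for all genes, and 64 of the 82 with a length were under 1500 bases. Among genes that are not members, 40% of those under 600 bases were higher in DRF, against 36.7% of those from 600 to under 1000 bases, 16.8% from there to under 2000, 6.07% from there to under 4000 and 1.41% of longer ones. The members' counts in the same classes were 10 of 19, 11 of 30, 9 of 24, 1 of 6 and 1 of 2. The members' median difference was 0.14 under 600 bases and 0.12 in the next class, against 0.11 and 0.10 for other genes of those lengths. From 1000 to under 2000 bases it was 0.10, against 0.05 for other genes. It was 0.097 for the 6 members from 2000 to under 4000 bases and 0.13 for the 2 longer ones, against 0.0037 and -0.06 for other genes. The 6 include Atp5md and the 2 include Atp5g1, whose lengths are uncertain.

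A library's length trend, the Spearman correlation across genes between transcript length and the deviation from a gene's mean, averaged -0.08 ± 0.18 in DRF and 0.11 ± 0.14 in NRF (SD, n = 28 each). A negative trend means that short transcripts are high in that library. Replicate 1 of DRF at ZT20, where the members were highest, had the lowest trend of all, at -0.38. Across the 56 libraries, which share preparation and depth with each gene they hold, the members' score was lower where the trend was higher (Pearson r = -0.52, Spearman rho = -0.49), and within regimens r was -0.47 in DRF and -0.37 in NRF. When each library's smooth trend with length was removed before the fit, 6 members were higher in DRF by limma: Ndufs7, Ndufb4, Atp5g1, Atp5g2, Atp5md and Ndufv3. Their differences were then 0.15, 0.12, 0.26, 0.09, 0.19 and 0.11, and the median over all 82 members was 0.03. The values of Atp5g1 and Atp5md, the largest of these, rest on uncertain lengths. The removal took Atp5g1 as 4715 bases and Atp5md as 2733, where the deposited score used 341 for Atp5md. Of all genes, 8.35% were higher in the fit as reported, and their share with the trend removed is not given here. With the trend as a covariate in the fit, limma called 0 members. The trend differed between the regimens, so the covariate can take up part of their difference. The share of all genes called in that fit is not given here either. How far the length trend is a property of the muscle or of the libraries was not tested.

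**Figure D3:**
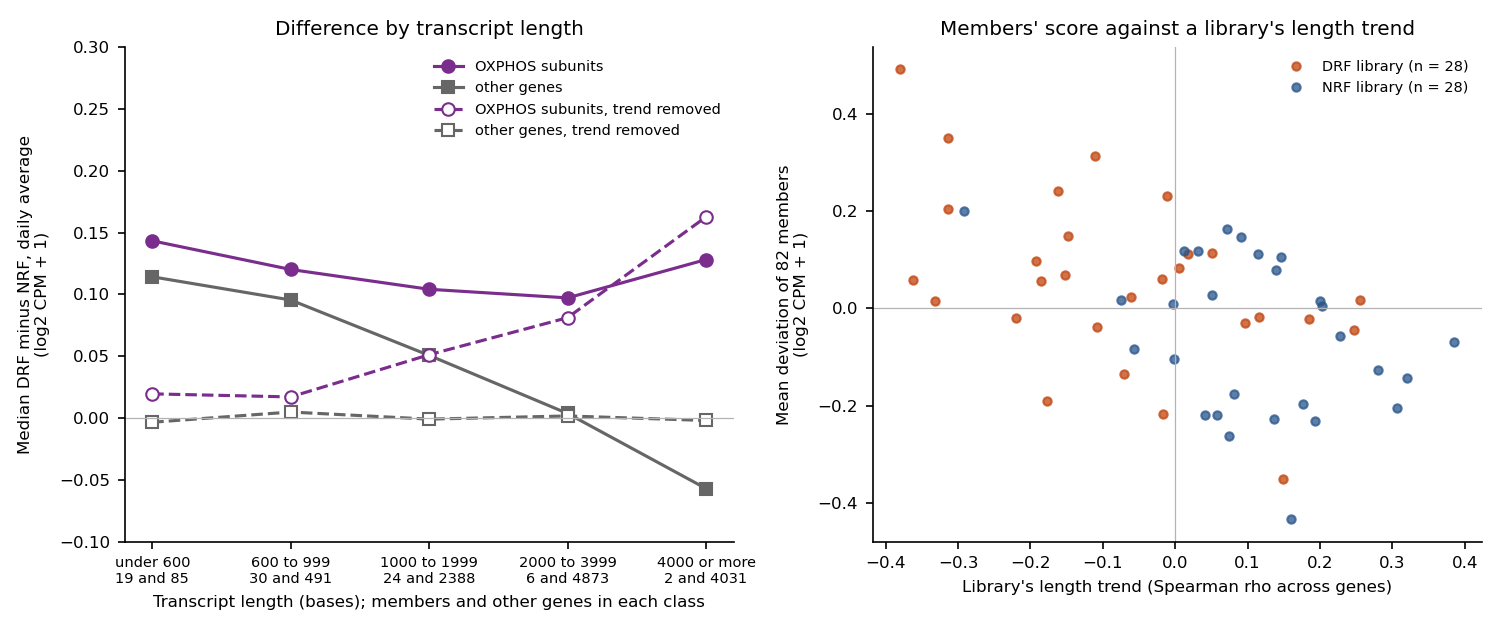
Left, median difference between DRF and NRF over the day (log2(CPM + 1)) by class of transcript length, for members (purple circles) and other genes (grey squares), as measured (filled) and with each library's length trend removed (open). Right, the members' mean deviation in each library (28 DRF and 28 NRF) against that library's length trend; the DRF library at -0.38 has the highest members' score, 0.49.

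Markers of other cells also moved with the regimen. All 5 red blood cell genes tested were higher in DRF by limma, with Hbb-bs at 221 CPM in DRF and 143 CPM in NRF, and their sum ran from 262 to 1677 CPM in DRF libraries and from 185 to 755 CPM in NRF libraries. Of 10 skeletal muscle markers 4 were higher in DRF, among them Acta1 by 0.29 and Ckm by 0.24. Of the slow fibre markers 0 of 12 were called in the average, and of the fast fibre markers 2 of 12. The slow fibre sum ran from 462 to 11190 CPM in DRF libraries and from 694 to 10220 CPM in NRF libraries. No adipocyte, endothelial, fibroblast, macrophage or nerve marker was called among 9, 10, 10, 9 and 9 tested, and 1 of 5 brown adipocyte markers was, the member Cox8b. With the slow fibre score as a covariate 45 members were called higher in DRF. The share of all genes higher in that fit is not given here, so this count cannot be set against it. Without the covariate the share was 8.35%. The part of the red blood cell and muscle markers in the result was not tested.

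At single times few members differed. At ZT12, the start of the dark phase, 1 of 82 members was called, Ndufa6, an accessory subunit of complex I, against 3.5% of all genes. It had 157, 156, 151 and 156 CPM in the DRF libraries and 140, 122, 105 and 123 CPM in the NRF libraries, with no overlap, a difference of 0.35 ± 0.10 and an adjusted p of 0.0367. At ZT16, 1 of 82 members was called, Atp5g2, against 10.8% of all genes. It had 276, 283, 293 and 233 CPM in DRF and 225, 208, 211 and 201 CPM in NRF, again with no overlap, a difference of 0.36 ± 0.10 and an adjusted p of 0.022. Limma called 0 members at ZT0, ZT4, ZT8, ZT20 and ZT24, where it called 1.85%, 0.973%, 0.208%, 2.96% and 5.56% of all genes. At an unadjusted p under 0.05 stood 2, 2, 0, 13 and 2 members at these times, which is 2.44%, 2.44%, 0%, 15.9% and 2.44% of the members, against 13%, 11.4%, 7.27%, 18.8% and 22% of all genes. The count was 17 members at ZT12 and 17 at ZT16. That is 20.7% of the members at each, against 22.1% of all genes at ZT12 and 27.7% at ZT16.

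The members' median difference was 0.11 at ZT0, 0.11 at ZT4, 0.01 at ZT8, 0.15 at ZT12, 0.19 at ZT16, 0.15 at ZT20 and 0.10 at ZT24. It was smallest at ZT8, where 46 of 82 estimates were positive, and largest in the dark phase. At ZT20 all 4 complex II subunits had negative estimates, with a median of -0.09, while the median of complex I was 0.15. The counts at ZT12 and ZT16 turned on single libraries. Without replicate 4 of DRF at ZT16, 15 members were called at ZT16, and without replicate 1 of DRF at ZT20, whose spread enters every comparison, 7 were called at ZT16 and 6 at ZT12. With all libraries, 10.8% of all genes were called at ZT16 and 3.5% at ZT12. The share of all genes called in these refits is not given here, so the members' counts cannot be set against it. Leaving out replicate 1, 3 or 4 of DRF or replicate 3 of NRF at ZT12 left 0 at ZT12, and leaving out replicate 2 or 3 of DRF or replicate 2 or 4 of NRF at ZT16 left 0 at ZT16.

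The 2 collections at lights on, a day apart, were also compared. By limma, 0 members were called between ZT24 and ZT0 in DRF and 0 in NRF, where 0.274% and 0% of all genes were called, and 15 and 31 members had an unadjusted p under 0.05. That is 18.3% of the members in DRF, against 19% of all genes, and 37.8% in NRF, against 7.77%. The median difference, ZT24 minus ZT0, was 0.19 in DRF and 0.23 in NRF, and the estimates were positive for 80 of 82 members in DRF and for all 82 in NRF. These medians are larger than that of the daily average between regimens. The length trend also differed between these collections, at -0.14 ± 0.13 at ZT24 and 0.12 ± 0.15 at ZT0 in DRF, and at -0.01 ± 0.19 at ZT24 and 0.23 ± 0.09 at ZT0 in NRF (SD, n = 4 each).

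**Figure D4:**
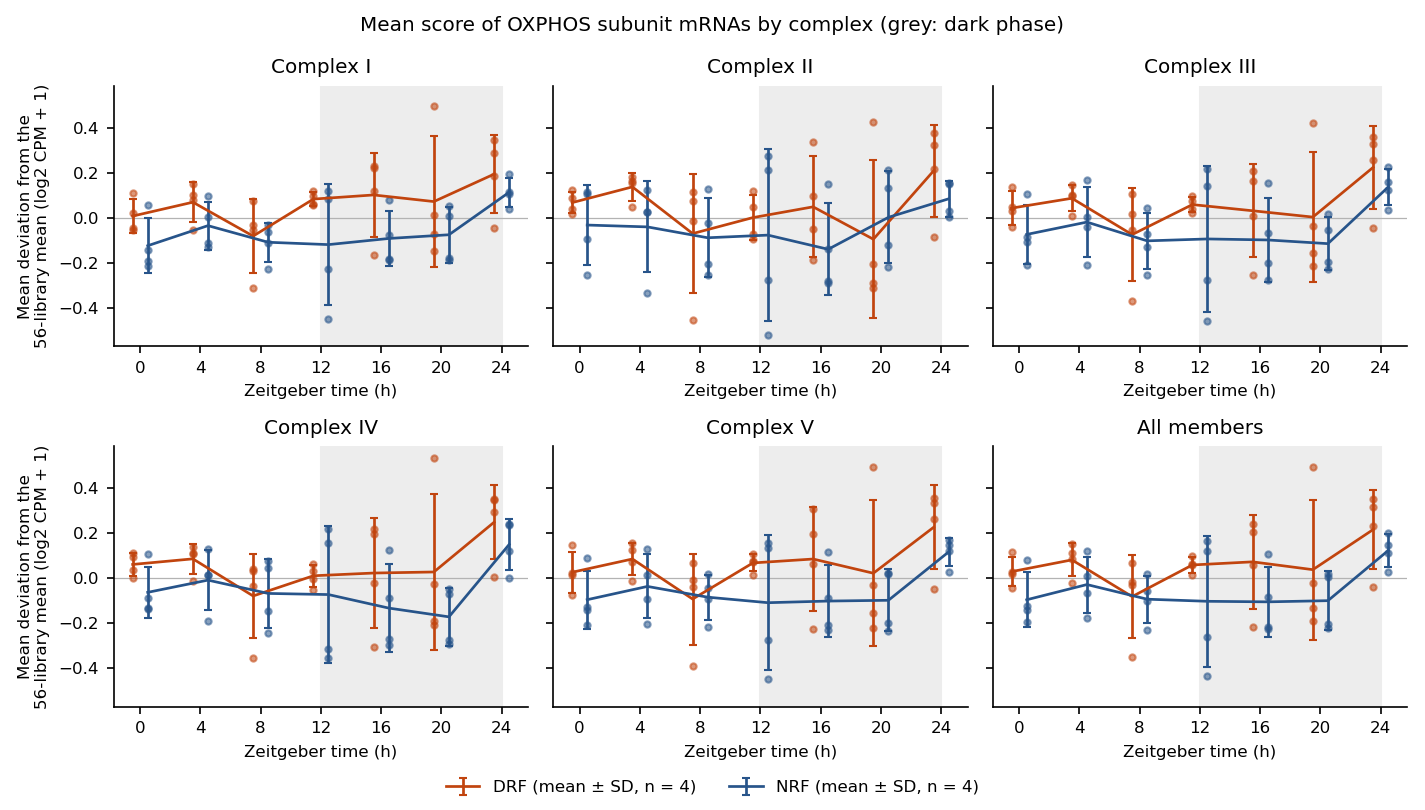
Mean deviation of the members of each complex from their own means over the 56 libraries (log2(CPM + 1)) against zeitgeber time, for DRF and NRF. Points are libraries and lines join group means ± SD (n = 4); in every panel the DRF mean at ZT24 is the highest group mean, and the libraries of DRF at ZT20 and NRF at ZT12 spread most widely.

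Daily rhythm was rare among the members. A 24 h cosine passed limma's moderated F test for 3 of 82 members in DRF, where 48.7% of all genes tested passed, and for 1 of 82 in NRF, where 15.1% passed. The members' median peak-to-trough in DRF was 0.18 (log2), against 0.26 for all genes, and in NRF it was 0.14, against 0.16. Any difference among the 7 times was called for 2 members in DRF, Atp5g2 and Cox7b, where 47.2% of all genes were called, and for 3 in NRF, Ndufa4l2, Ndufa6 and Ndufa2, where 19.7% were. The largest peak-to-trough in DRF was 0.32 in complex I (Ndufs1), 0.24 in complex II (Sdha), 0.23 in complex III (Uqcr11), 0.37 in complex IV (Cox7a1) and 0.29 in complex V (Atp5g2), and of these Ndufs1 and Atp5g2 passed. In NRF it was 0.22 in complex I (Ndufb2), 0.25 in complex II (Sdhb), 0.22 in complex III (Uqcrq), 0.40 in complex IV (Ndufa4l2) and 0.19 in complex V (Atp5g1), and of these Ndufa4l2 passed. The rhythm itself differed between DRF and NRF for 0 members by limma (1, Ndufa4l2, at an unadjusted p under 0.05), and for 13.1% of all genes.

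The 3 rhythmic members in DRF peaked at different times. Atp5g2 peaked at ZT17.7 with a peak-to-trough of 0.29 (adjusted p = 0.0193). In DRF it had 276, 283, 293 and 233 CPM at ZT16. At ZT4, the collection nearest its fitted low point, it had 214, 234, 231 and 244 CPM, which overlapped with ZT16. It had 251, 202, 190 and 223 CPM at ZT0, where 1 library lay above the lowest at ZT16. A day later, at ZT24, it had 250, 249, 273 and 290 CPM, all above the lowest at ZT16. Ndufs1, the largest core subunit of complex I, peaked at ZT5.0 with a peak-to-trough of 0.32 (adjusted p = 0.0395). In DRF it had 423, 393, 394 and 434 CPM at ZT4, the collection nearest that peak. At ZT20 it had 314, 308, 323 and 345 CPM, with no overlap with ZT4. At ZT16, the collection nearest its fitted low point, it had 338, 444, 309 and 325 CPM. The highest of these lay above every library at ZT4. Cox7b, a small membrane subunit of complex IV, peaked at ZT3.4 with a peak-to-trough of 0.31 (adjusted p = 0.0453). It had 291, 260, 288 and 293 CPM at ZT4, the collection nearest that peak, and 249, 272, 205 and 212 CPM at ZT16 in DRF, where 1 library at ZT16 lay above the lowest at ZT4.

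In NRF the rhythmic member was Ndufa4l2, with a peak at ZT5.4 and a peak-to-trough of 0.40 (adjusted p = 0.0264). It had 12.2, 9.88, 10.5 and 11.1 CPM at ZT4 and 9.05, 7.92, 7.78 and 7.86 CPM at ZT16 in NRF, with no overlap. In DRF its peak-to-trough was 0.05 (adjusted p = 0.921). The difference between the regimens' rhythms had an unadjusted p of 0.0247 and did not pass the adjustment.

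**Figure D5:**
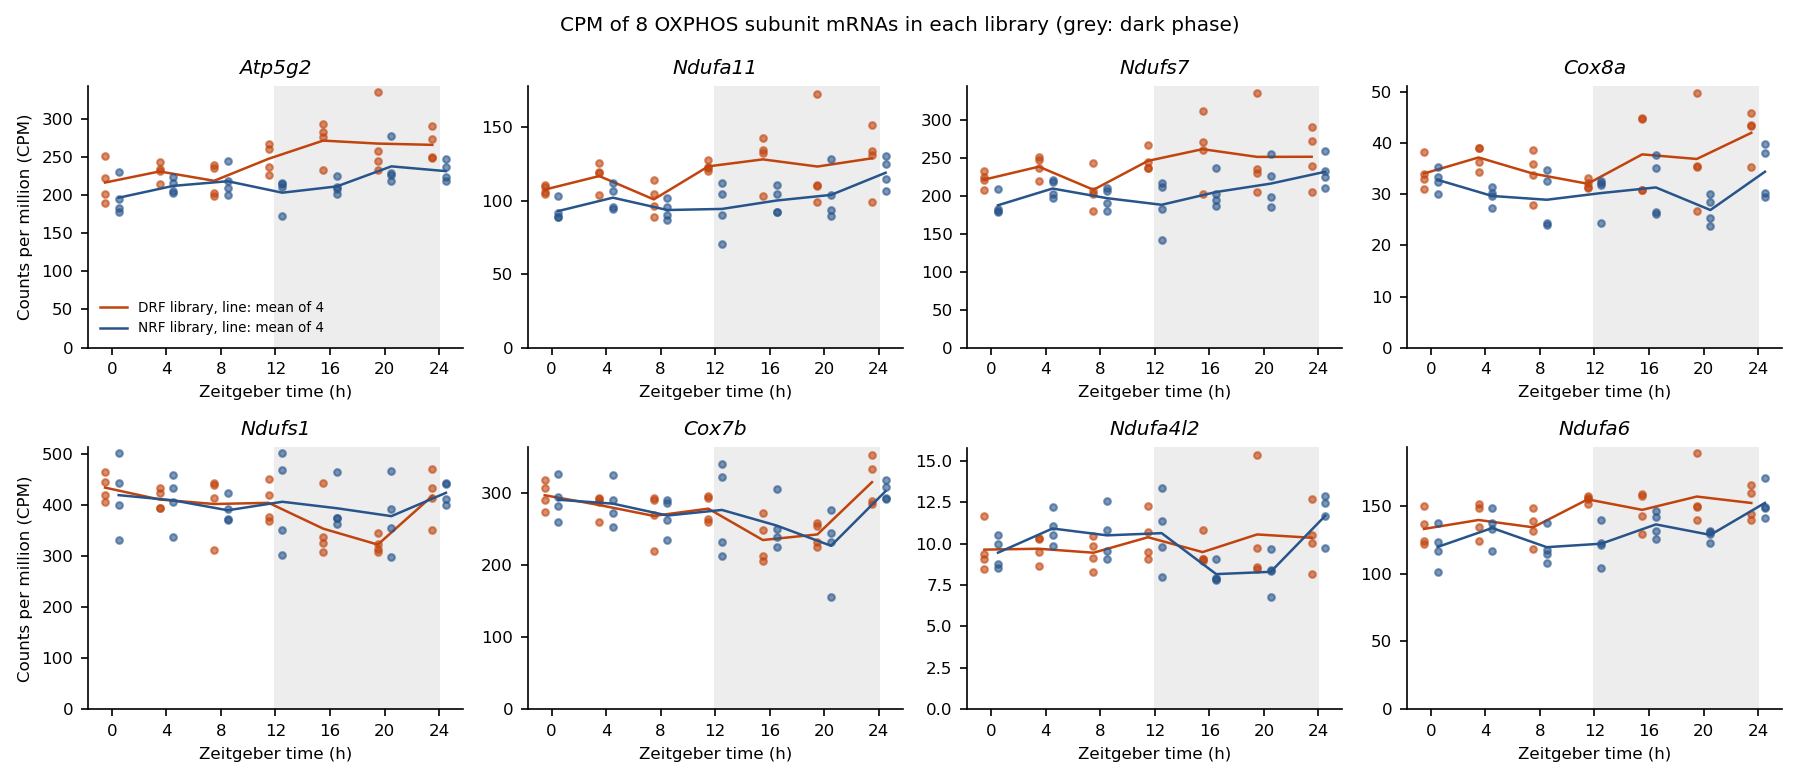
CPM of 8 members in each library against zeitgeber time, with DRF and NRF points side by side and lines through the means of 4 libraries. Atp5g2 is higher in every DRF library than in any NRF library at ZT16, Ndufs1 is lowest in DRF at ZT20, and Ndufa4l2 is lowest in NRF at ZT16 and ZT20.

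These rhythm counts rested on single libraries and on the handling of length. Without replicate 1 of DRF at ZT20, 0 members were rhythmic in DRF, and 1 was without replicate 1 or 4 of DRF at ZT4, replicate 1 or 4 at ZT8, replicate 1 or 3 at ZT16 or replicate 2 at ZT20. In NRF 0 were rhythmic without replicate 2, 3 or 4 at ZT16, replicate 2 at ZT20, replicate 1 at ZT4 or replicate 4 at ZT8. With each library's length trend removed, 17 members were rhythmic in DRF, of which 15 were under 1000 bases, and all 17 peaked between ZT1.4 and ZT5.5. Of the other genes 47.1% were then rhythmic, 24.9% of them with peaks from ZT0 to ZT6. Cox7a1, at a peak-to-trough of 0.54, had the largest of these, followed by Cox7b at 0.45 and Uqcrb at 0.41. As TPM 30 of 81 members were rhythmic in DRF, against 56.7% of the other genes, all with peaks between ZT1.5 and ZT5.0, the window of ZT0 to ZT6 that then held 71.2% of the other rhythmic genes. The authors' deposited table of their own rhythm test called 0 of the 84 members it lists in DRF, with the smallest q at 0.0849 for Sdha, where 15.9% of its 16119 genes were called. For NRF the authors' deposited table called 1 member, Ndufa4l2, with a q of 0.0324, where 7.16% were called.

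Lists of genes with other roles were counted beside the members, on the daily average and by limma. Among all genes tested, 8.35% were higher in DRF and 7.53% were lower. Of 47 assembly factors, which build the complexes without staying in them, 11 were higher in DRF and 1 was lower, with a median of 0.05. Of 78 mitochondrial ribosomal proteins 38 were higher, with a median of 0.10 and a median length of 1302 bases. Of 79 cytosolic ribosomal proteins, with a median length of 878 bases like that of the members, 65 were higher, with a median of 0.15. In DRF 71 of these 79 were rhythmic, where 3 of the 82 members and 48.7% of all genes were. With the length trend removed 40 of the 79 and 17 of the 82 were, against 47.1% of the genes that are not members. Of 14 tricarboxylic acid cycle genes 4 were higher and of 18 regulators of mitochondrial genes 1 was, while 0 of 9 electron carriers and acyl carrier genes were called, at a median of 0.12. With the length trend removed the counts higher were 1 of 47 assembly factors, 15 of 78 mitochondrial ribosomal proteins and 26 of 79 cytosolic ribosomal proteins. The share of all genes higher in that fit is not given here.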

How the data were processed

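Poly(A) RNA of whole muscle was sequenced as paired reads of 100 bases, per the labels' protocols. HISAT2, Bowtie2, RSEM and the builds mm10 and GRCm38.p6 are named in the submitters' processing notes, without versions. The values that the authors deposited as an expression table are a score: the log2 of 1 plus a gene's reads per 1000000 of a library size, divided by gene length and scaled to sum to 1000000 per library. No label or file header says how that library size was derived. This form was found from the values and inverted, which gave reads for 17443 of the 19072 genes (14833 with whole reads within 0.001 of the value times 100, and 2610 with decimals), and 1629 genes had fewer than 4 values above 0. The q-values (adjusted p-values) and peak times of the authors' own rhythm test are those in the authors' deposited tables.

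The test was limma 3.58.1 (R 4.3.3) with a trended prior on log2(CPM + 1), over genes with a mean of at least 1 CPM, with all 56 libraries in 1 fit of 14 group means or of a 24 h cosine per regimen. P-values were two-sided and adjusted by Benjamini-Hochberg over 12025 genes, and a member was called at an adjusted p under 0.05. Fold changes are on the log2(CPM + 1) scale, and limma was used on these recovered values rather than a count test. The fit was tested on simulated data. Transcript lengths are those of the principal transcript in GENCODE for GRCm38, and a library's length trend was removed with a local regression of span 0.3. The alternatives were other scalings, filters and pseudocounts, leaving out libraries or times, library weights, a slow fibre covariate and, chosen after seeing the data, TPM, the length covariate and the length trend by deposited length.

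Replicate numbers were not used as a block, since same-numbered libraries did not deviate together. The members and gene lists were chosen with earlier results of these data known. Named with values were the isoform pairs, the c-ring genes, main core subunits, up to 6 called members with the smallest p per comparison, and per complex the extremes of the daily difference and of the rhythm. The length classes, the roles within complexes and the members named beyond that rule were chosen after their values were seen. Mitochondrially encoded subunits were not analysed here. One member is included in the counts and is not reported here by itself.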

Additional observations from a re-analysis of the deposited data

Results flagged for a closer look

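Within each group of 4 libraries, a library was picked out where its gap to the nearest other divided by the group's range exceeded Dixon's 95% critical value for 4 samples. This held for 7 of the 168 groups tested, and chance gives about 1 in 20 groups, or 8.4 here. In DRF at ZT20, replicate 1 had a complex II score of 0.43 (log2), against -0.31 to -0.20 in the others, and 173 CPM of Ndufa11, against 99.3 to 111 CPM. In DRF at ZT24, replicate 2 had a complex IV score of 0.0036, against 0.29 to 0.35 in the others. Atp5g2 had 172 CPM in replicate 3 of NRF at ZT12, against 210 to 215 CPM in the others, and 277 CPM in replicate 4 of NRF at ZT20, against 218 to 228 CPM. Ndufs7 had 209 CPM in replicate 3 of NRF at ZT0, against 179 to 183 CPM in the others. Cox8a had 24.4 CPM in replicate 4 of NRF at ZT12, against 31.9 to 32.6 CPM in the others.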

How the results depend on the processing

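The count of members higher in DRF in the daily average, 32 as reported, stayed within 1.5 times that under the other filters and pseudocount, median-of-ratios and quantile scaling, library weights, the slow fibre covariate and leaving out ZT0 or ZT24, and all 6 complex score differences stayed above 0 under the 5 alternatives of scaling, length trend and deposited value and when any library was left out. As TPM, complex I stayed above 0 at 0.0070, and the differences were -0.044 for complex II, -0.018 for complex III, -0.017 for complex IV, -0.0052 for complex V and -0.0055 for all members, each within the replicate SD of the value as reported. Sign changes below are given for the 35 named members, of which 11 were called in the daily average; over all members, 24 of 82 estimates were negative with the recovered totals and 41 of 81 as TPM. The share of genes called under an alternative is given only for rhythm in DRF, with the trend removed and as TPM. The other counts of members below cannot be set against such a share. In the fit as reported, 10.8% of all genes were called at ZT16 and 47.2% for any time effect in DRF. With no filter on low values, the members called were 1 for any time effect in DRF and 1 for rhythm in DRF. With a filter at a mean CPM of 10, the members called were 2 for ZT12, 2 for ZT16 and 0 for rhythm in NRF. With the recovered totals as library size, the members called were 4 for the daily average, 0 for ZT12, 6 for any time effect in DRF, 7 for any time effect in NRF and 9 for rhythm in DRF, and the daily difference changed sign to -0.0016 for Ndufa4, -0.055 for Ndufa4l2, -0.045 for Atp5g3, -0.022 for Ndufv1, -0.074 for Sdha, -0.066 for Cox7b, -0.041 for Ndufb2, -0.019 for Uqcrb and -0.046 for Atp5j. With median-of-ratios size factors, the members called were 4 for ZT12. With quantile scaling, the members called were 0 for ZT12, 1 for ZT20, 6 for any time effect in DRF, 10 for any time effect in NRF and 2 for rhythm in NRF, and the daily difference changed sign to -0.0035 for Atp5g3, -0.032 for Sdha, -0.0043 for Atp5a1, -0.0086 for Atp5b, -0.020 for Cox7b and -0.00023 for Atp5j. With the length trend removed, the members called were 6 for the daily average, 0 for ZT12, 8 for any time effect in DRF and 17 for rhythm in DRF, and the daily difference changed sign to -0.0021 for Cox4i1, -0.032 for Ndufa4, -0.067 for Ndufa4l2, -0.066 for Atp5g3, -0.067 for Cox7b, -0.057 for Uqcrb, -0.0056 for Uqcr11 and -0.060 for Atp5j. On log2 of the deposited value plus 1, the members called were 17 for the daily average, 8 for ZT12, 0 for ZT16 and 1 for any time effect in NRF, and the daily difference changed sign to -0.0048 for Sdha and -0.0031 for Cox7b. With library weights, the members called were 4 for ZT12, 23 for ZT16, 1 for ZT20, 1 for ZT24 minus ZT0 in DRF, 8 for ZT24 minus ZT0 in NRF, 30 for any time effect in DRF, 24 for any time effect in NRF, 1 for rhythm in DRF and 2 for rhythm in NRF, and the daily difference changed sign to -0.033 for Ndufa4l2, -0.0070 for Atp5g3, -0.012 for Sdha and -0.0038 for Cox7b. With the slow fibre score as a covariate, the members called were 8 for ZT12, 2 for ZT16, 16 for ZT20, 1 for ZT24, 14 for any time effect in DRF, 11 for rhythm in DRF and 1 for a difference in rhythm, and the daily difference changed sign to -0.0017 for Sdha. Without ZT24, the members called were 1 for any time effect in DRF, 0 for any time effect in NRF and 1 for rhythm in DRF, and the daily difference changed sign to -0.00011 for Sdha. Without ZT0, the members called were 1 for any time effect in DRF and 1 for any time effect in NRF. With the trend removed by the deposited length, chosen after seeing the data, the members called were 14 for the daily average and 10 for rhythm in DRF, and the daily difference changed sign to -0.071 for Ndufa4l2, -0.016 for Atp5g3, -0.070 for Cox7b and -0.039 for Uqcrb. With the length trend as a covariate, chosen after seeing the data, the members called were 0 for the daily average and 2 for rhythm in NRF, and the daily difference changed sign to -0.036 for Cox4i1, -0.0085 for Ndufa4, -0.036 for Ndufa4l2, -0.079 for Atp5g3, -0.014 for Ndufa2, -0.12 for Ndufb2, -0.050 for Uqcr11 and -0.020 for Atp5j. As TPM, chosen after seeing the data, the members called were 2 for the daily average and 30 for rhythm in DRF, and the daily difference changed sign to -0.031 for Cox4i1, -0.048 for Ndufa4, -0.10 for Ndufa4l2, -0.091 for Atp5g3, -0.068 for Ndufv1, -0.12 for Sdha, -0.015 for Sdhb, -0.011 for Sdhc, -0.032 for Sdhd, -0.038 for Uqcrfs1, -0.042 for Atp5a1, -0.043 for Atp5b, -0.11 for Cox7b, -0.086 for Ndufb2, -0.065 for Uqcrb, -0.0027 for Uqcr11 and -0.092 for Atp5j. For every alternative whose construction does not show it, the cause of a moved count or a turned sign was not tested. With the replicate block, 30 members were higher in DRF in the daily average and 3 had a time effect in DRF, and no other count of members moved. Over 364 pairs of same-numbered libraries the median correlation of their deviations was -0.013, and 120 pairs were over 0.1. Leaving out each library in turn gave 20 to 40 members for the daily average, 0 to 6 members for ZT12, 0 to 15 members for ZT16, 0 to 2 members for ZT20, 1 to 6 members for any time effect in DRF, 0 to 4 members for any time effect in NRF, 0 to 4 members for rhythm in DRF and 0 to 1 members for rhythm in NRF, and 0 members throughout for the comparisons not listed here. The count of members with a time effect moved by over 1.5 times in 21 of these 56 fits in DRF and in 8 in NRF. Over the same leave-outs the daily difference changed sign for Ndufa4l2 in 2 (-0.013 to 0.035), Atp5g3 in 1 (-0.0015 to 0.060), Sdha in 12 (-0.016 to 0.022) and Cox7b in 3 (-0.016 to 0.030). Of the 11 named members called in the daily average, Ndufa2 changed sign, with the length covariate, and of all 32 called members 2 had a negative estimate as TPM.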
